A study of Homo sapiens with 4 samples.

Results

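The genes described here are 47 interferon-stimulated and nucleic acid sensing genes, out of 59 listed innate immune genes and of 14884 genes that the platform annotation names on the array. Each was found by its symbol in the platform annotation (44 genes) or, failing that, in the study's supplementary result table (3 genes), and each has 1 named probe set. Total RNA of Baz2B-KO (2 arrays) and of the parental Hap1 control (2 arrays) was hybridised to Affymetrix Human Gene 2.0 ST arrays, which read most transcripts over their whole length. Hap1 cells carry nearly 1 copy of each chromosome and descend from KBM-7, a chronic myelogenous leukaemia line. Baz2B-KO is a line derived from it, in which CRISPR/Cas9 left a small deletion in a coding exon of BAZ2B, a regulatory subunit of ISWI chromatin remodelling complexes. Both lines were bought as such and grown separately in IMDM with foetal calf serum. No interferon, virus or transfected nucleic acid is named in the labels or the methods, so the values describe both lines in ordinary culture. The comparison is between 1 edited line and 1 parental line, and the loss of Baz2B cannot be told apart from other differences between them. Whether the 2 arrays per line stand for separate cultures is not said in the labels or methods. In the study's result table the array names carry the mark P5 for replicate 1 and P6 for replicate 2 of both lines, and what the marks stand for is not given there. The p-values then measure the spread between these arrays alone, which may be technical.

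Cells recognise foreign or misplaced nucleic acid with dedicated sensors. cGAS, the product of CGAS, binds double-stranded DNA in the cytosol and makes a cyclic dinucleotide that activates STING, and STING engages the kinase TBK1, which phosphorylates the transcription factor IRF3. RIG-I (RIGI) and MDA5 (IFIH1) bind viral RNA and signal through MAVS to the same kinase. The interferon that is then secreted binds its receptors, the kinases JAK1 and TYK2 are activated, and a transcription factor complex with IRF9 as its DNA-binding subunit occupies the interferon-stimulated response element (ISRE) in the promoters of antiviral effector genes.

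The ISRE letters stand in the promoter windows of several of these genes, though not in those of RSAD2, XAF1 and IFI35, among others. The 8 stretches shown come from genes that hold the letters, are usual readouts of interferon signalling and were measured on these arrays. They were taken from the RefSeq promoter windows of GRCh38.p14, which run from 250 bases before to 50 bases after each gene's start, and are written 5′ to 3′ on the strand of the gene. The stretches end at the gene's start at the latest. The capitals mark each match that lies wholly before the start to the ISRE core, which is GAAA, then 2 bases of any kind, then GAAA again. Both strands were searched, so that a match on the opposite strand starts and ends with TTTC. Matches may overlap.
ISG15 (chr1:1013364-1013419, plus strand): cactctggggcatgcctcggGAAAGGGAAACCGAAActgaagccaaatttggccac
IFIT1 (chr10:89392487-89392549, plus strand): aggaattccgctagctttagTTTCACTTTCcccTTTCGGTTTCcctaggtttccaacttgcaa
IFIT5 (chr10:89414503-89414567, plus strand): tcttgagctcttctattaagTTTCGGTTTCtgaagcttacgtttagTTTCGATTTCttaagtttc
IFITM3 (chr11:320866-320932, minus strand): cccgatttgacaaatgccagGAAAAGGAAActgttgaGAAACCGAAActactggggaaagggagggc
HERC5 (chr4:88456974-88457074, plus strand): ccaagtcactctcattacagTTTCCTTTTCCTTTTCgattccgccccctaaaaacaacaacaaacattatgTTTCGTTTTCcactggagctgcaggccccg
BST2 (chr19:17405725-17405780, minus strand): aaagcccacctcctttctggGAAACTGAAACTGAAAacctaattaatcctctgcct
ISG20 (chr15:88638927-88638976, plus strand): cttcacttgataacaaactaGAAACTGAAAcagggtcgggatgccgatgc
IFI6 (chr1:27672256-27672368, minus strand): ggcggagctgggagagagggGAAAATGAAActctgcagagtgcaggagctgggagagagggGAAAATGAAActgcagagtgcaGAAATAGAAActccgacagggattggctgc
ISG15 and BST2 each carry 2 overlapping matches in tandem, HERC5 carries 3 matches of which 2 overlap, and IFI6 carries 3 separate ones. IFIT5 has a 3rd match that runs across its start and is not shown. In all, 17 of the 32 members with a promoter in the table held the ISRE core, against 3.58% of 35093 promoter windows of the same length. A match is a description of the letters and not of a bound site. CGAS, APOBEC3C, OAS2, DHX58, IFIT2, IFITM2, IRF2, IRF3, IRF7, MX2, OASL, PML, STING1, USP18 and ZBP1 had no entry in this table.

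The authors normalised the arrays by RMA, which gives 1 log2 intensity per probe set, and array medians lay between 3.53 and 3.55. A member was tested where its intensity was above 3.5 in at least 2 arrays, the limit that the methods use. Of the 44 members named by the platform annotation, 35 met this limit, 33 of them in all 4 arrays and 2 in 3 arrays, and none met it in 1 line only. The other 9 were below it in all 4 arrays. The 12 listed genes without a named probe set are IFI16, STAT2, IFNAR1, IFNAR2, OAS1, OAS3, APOBEC3B, APOBEC3F, APOBEC3G, ADAR, MX1 and IFI27, and they were not analysed here, nor was BAZ2B itself. Over the tested probe sets the 2 Baz2B-KO arrays correlated at 0.992 and the 2 controls at 0.989, with 0.983 to 0.987 across the lines. Of 14 blood lineage markers, 7 had a named probe set, and only GATA1, TAL1 and SPI1 lay above the limit in all 4 arrays. CD34 was above it on 1 control array and MPO on 1 Baz2B-KO array. CD14 and LYZ, markers of myeloid cells, were below it in all 4. The blood markers ranged from 1.90 to 4.77 in Baz2B-KO and from 1.85 to 4.78 in the control, and none of the 3 that were tested passed.

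**Figure D1:**
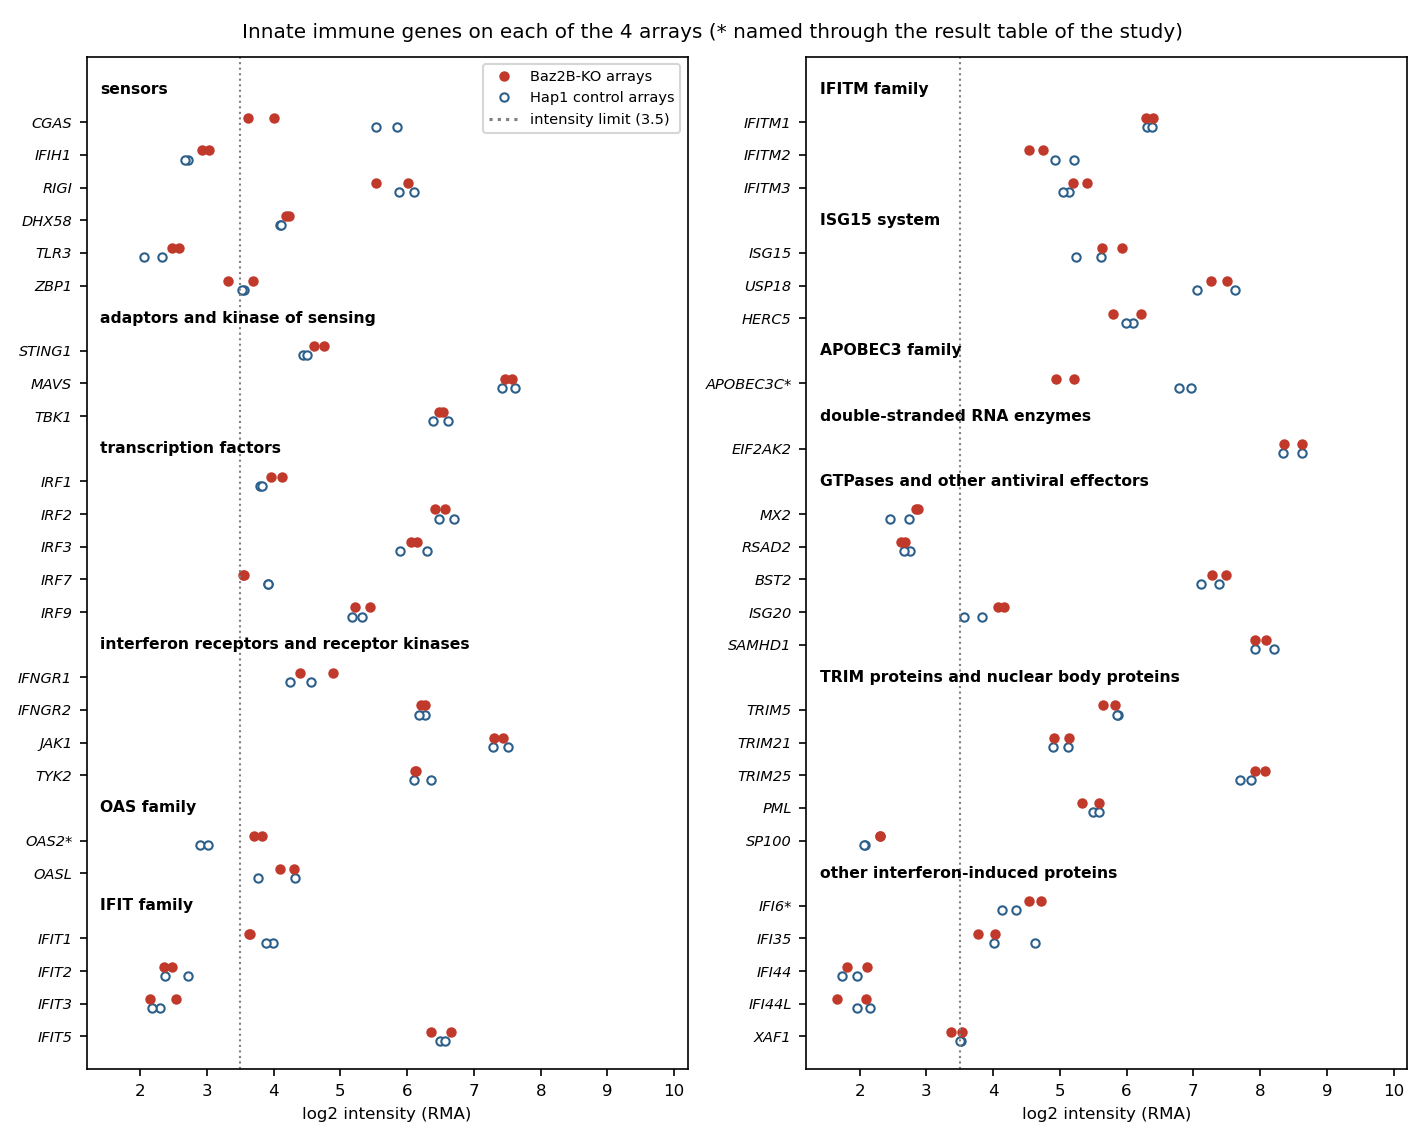
Log2 intensity (RMA) of the 47 genes on each array, grouped by role, with Baz2B-KO arrays as filled points and Hap1 control arrays as open points; the dotted line is the intensity limit of 3.5 and an asterisk marks the 3 genes named through the study's result table. CGAS and APOBEC3C have Baz2B-KO arrays far to the left of the controls, OAS2 has them to the right across the limit, and in most other rows the points of both lines lie close together.

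CGAS, the cytosolic DNA sensor, was lower in Baz2B-KO, and it was the only one of the 35 tested members that passed the test. Its probe set (17020787) had log2 intensities of 4.01 and 3.61 on the Baz2B-KO arrays, against 5.84 and 5.53 on the Hap1 control arrays. Both Baz2B-KO arrays thus lay below both controls, by far more than the arrays of a line differed from each other (0.40 in Baz2B-KO and 0.31 in the control). The mean was 3.81 ± 0.28 in Baz2B-KO and 5.69 ± 0.217 in the control (SD, n = 2 each). This is a log2 fold change of -1.88 (standard error (SE) 0.168, 95% interval -2.27 to -1.48, adjusted p = 0.00373 from limma), or a 3.67-fold lower intensity. In total RNA, fewer cells with a transcript and less of it per cell cannot be told apart. The fall of CGAS was 11th in size among the falls of all 11235 tested probe sets, and its p was the 22nd lowest.
Of all tested probe sets, 0.392% were called lower and 0.276% were called higher, 0.668% together, and among the members 1 of 35 was lower and 0 were higher. With all 27722 retained probe sets in the fit, named or not, 0.0938% were called and the adjusted p of CGAS was 0.100 from limma. It was 0.123 without control replicate 1 and 0.0895 without control replicate 2, where no probe set of the array passed, and CGAS stayed between -2.07 and -1.68 on the log2 scale when any 1 array was left out.

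No other sensor passed the test. RIGI, whose product recognises viral RNA ends, had 6.01 and 5.54 in Baz2B-KO, against 6.10 and 5.88 in the control. Its arrays overlapped between the lines, with a log2 fold change of -0.21 (95% interval -0.62 to 0.19). DHX58, which encodes LGP2, a regulator of RNA sensing by MDA5 and RIG-I, had 4.19 and 4.23 in Baz2B-KO and 4.10 and 4.11 in the control. The arrays of DHX58 did not overlap, but the difference of 0.11 on the log2 scale did not pass (adjusted p = 0.850 from limma). ZBP1, a sensor of Z-form nucleic acid, had 3.31 and 3.69 in Baz2B-KO, against 3.55 and 3.52 in the control, so the level lay at the limit in both lines.
The sensors IFIH1, which encodes MDA5, and TLR3, an endosomal receptor of double-stranded RNA, were below the limit in all arrays. IFIH1 had 3.03 and 2.92 in Baz2B-KO and 2.71 and 2.67 in the control. TLR3 had 2.58 and 2.48 in Baz2B-KO, against 2.05 and 2.32 in the control. In both genes the Baz2B-KO arrays were the higher ones, at values where the array measures little.

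None of the signalling genes downstream of cGAS passed the test. STING1, which encodes the receptor of the cGAS product, had 4.75 and 4.60 in Baz2B-KO, against 4.44 and 4.50 in the control. The Baz2B-KO arrays of STING1 were the higher ones, by 0.21 on the log2 scale (95% interval -0.06 to 0.48, adjusted p = 0.644 from limma). TBK1, the kinase that STING engages, had 6.53 and 6.47 in Baz2B-KO and 6.61 and 6.38 in the control. MAVS, the adaptor of RIG-I and MDA5, had 7.47 and 7.57 in Baz2B-KO and 7.42 and 7.62 in the control. For TBK1 and MAVS the control arrays enclosed the Baz2B-KO arrays, and both 95% intervals ran from -0.28 to 0.29.
Among the 5 transcription factors tested, IRF7, the interferon-inducible amplifier of interferon transcription, differed most. IRF7 had 3.55 and 3.54 in Baz2B-KO, against 3.92 and 3.91 in the control, a log2 fold change of -0.37 (SE 0.106, adjusted p = 0.291 from limma). The replicates of IRF7 agreed within 0.01, which is far less than the typical gap between replicates, and the levels in Baz2B-KO lay just above the limit. IRF1, a factor induced by interferon gamma, had 4.12 and 3.96 in Baz2B-KO and 3.80 and 3.83 in the control (log2 fold change 0.22, adjusted p = 0.615 from limma). IRF3, which TBK1 phosphorylates, had 6.06 and 6.15 in Baz2B-KO, within the control arrays at 5.89 and 6.29. IRF9, the subunit that recognises the ISRE, differed by 0.09 and IRF2, a repressor at the same elements, by -0.09.
The receptor and receptor kinase genes overlapped between the lines in all 4 tested cases. IFNGR1, the ligand-binding chain of the interferon gamma receptor, had 4.89 and 4.40 in Baz2B-KO, against 4.56 and 4.25 in the control. That is a log2 fold change of 0.24 (95% interval -0.19 to 0.67), and it was -0.01 without Baz2B-KO replicate 1. IFNGR2, JAK1 and TYK2 had log2 fold changes of 0.02, -0.02 and -0.10.

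**Figure D2:**
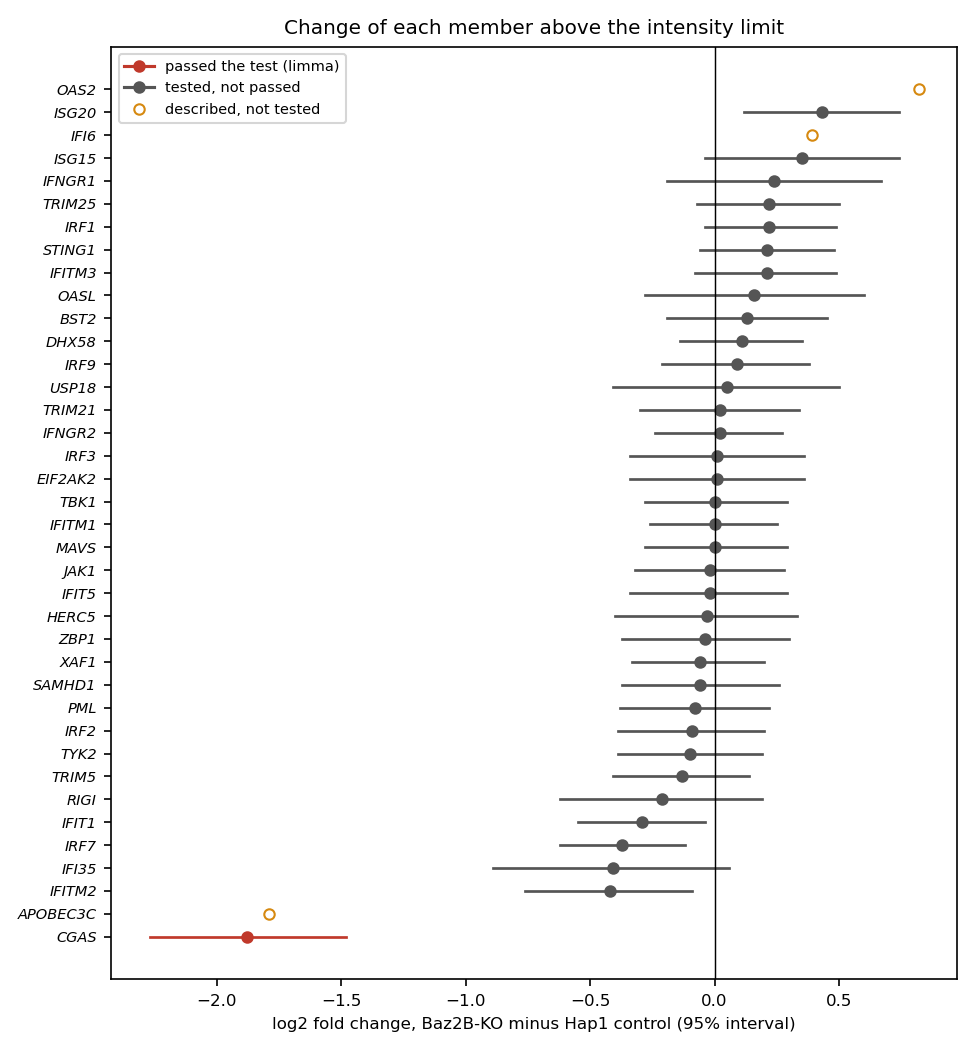
Log2 fold change, Baz2B-KO minus Hap1 control, of the 38 members above the intensity limit. The red point passed the test and grey points were tested and did not pass, both with 95% intervals. Open orange points were described, with no test in the main fit and no interval, and OAS2 had both controls under the limit. CGAS (-1.88) and APOBEC3C (-1.79) stand apart at the bottom and OAS2 (0.82) at the top, while the tested members other than CGAS lie between -0.42 and 0.43.

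APOBEC3C, OAS2 and IFI6 are named only by the study's result table. The part of it that was held has 1999 rows, those of lowest p, so these 3 genes could be named because their p was low. Their values are therefore a description and were left out of the counts. In the fit of all 27722 retained probe sets, named or not, CGAS did not pass (adjusted p = 0.100 from limma). None of these 3 genes passed in it either. Their adjusted p there was 0.0615 (APOBEC3C), 0.213 (OAS2) and 0.561 (IFI6), from limma. APOBEC3C, a cytidine deaminase that restricts retroelements, had 5.21 and 4.94 in Baz2B-KO, against 6.78 and 6.96 in the control. The Baz2B-KO arrays lay well below both controls, with a log2 fold change of -1.79, or 3.46-fold lower. The APOBEC3 genes are similar in sequence and lie side by side, and whether this probe set also reads another of them was not tested.
OAS2, which makes oligoadenylates that activate an antiviral RNase when it meets double-stranded RNA, differed in the other direction. It had 3.71 and 3.83 in Baz2B-KO, against 2.89 and 3.01 in the control. Both controls of OAS2 lay under the limit, so that the probe set was retained through Baz2B-KO alone and the measured log2 fold change of 0.82 has no firm lower end. With the controls set at the limit of 3.5, the Baz2B-KO mean would be 1.21-fold above them, a figure with no error. OAS2 was retained through these same values, and so has no firm minimum. Its paralog OASL, with 4.10 and 4.30 in Baz2B-KO and 3.76 and 4.32 in the control, overlapped between the lines (log2 fold change 0.16, 95% interval -0.28 to 0.60).
IFI6, which encodes an interferon-induced mitochondrial protein, had 4.54 and 4.72 in Baz2B-KO and 4.35 and 4.14 in the control (log2 fold change 0.39).

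**Figure D3:**
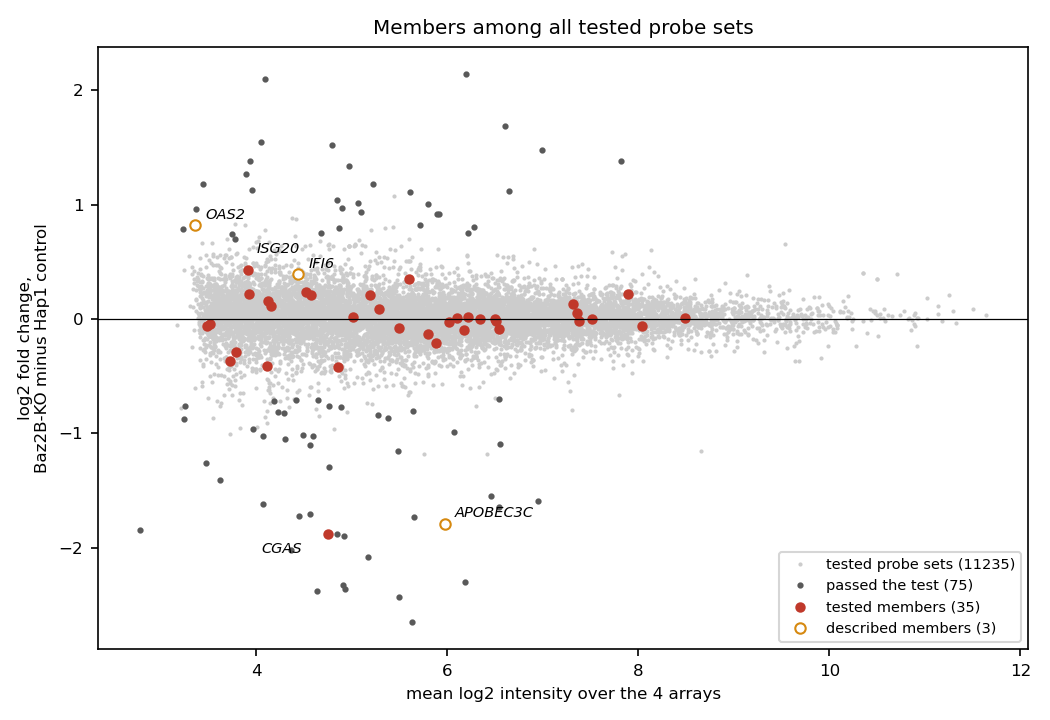
Log2 fold change, Baz2B-KO minus Hap1 control, against the mean log2 intensity over the 4 arrays for the 11235 tested probe sets (light grey), with the 75 that passed in dark grey, the 35 tested members in red and the 3 described members as open orange points. CGAS lies among the called falls, and the other tested members lie within the grey band.

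None of the classical interferon-stimulated effector genes that were tested passed, and their log2 fold changes lay on either side of 0. ISG15, the ubiquitin-like protein that is conjugated to newly made proteins after interferon, had 5.63 and 5.93 in Baz2B-KO, against 5.24 and 5.61 in the control. The arrays of ISG15 only just failed to overlap, and the log2 fold change of 0.35 (SE 0.165, adjusted p = 0.565 from limma) was smaller than the gap of 0.38 between the controls. USP18, which removes ISG15 from its targets, had 7.51 and 7.26 in Baz2B-KO, inside the control range of 7.05 and 7.62. HERC5, the main ligase of ISG15, differed by -0.03 on the log2 scale.
ISG20, an exonuclease that degrades viral RNA, had 4.08 and 4.17 in Baz2B-KO, against 3.84 and 3.56 in the control. Its log2 fold change of 0.43 (SE 0.131, 95% interval 0.12 to 0.74, adjusted p = 0.332 from limma) was the highest among the tested members and did not pass. BST2, or tetherin, which holds budding virions at the membrane, differed by 0.13 and overlapped. SAMHD1, which depletes nucleotides needed for reverse transcription, had 8.09 and 7.93 in Baz2B-KO and 8.21 and 7.93 in the control.
In the IFIT family, whose proteins bind viral RNA, IFIT1 had 3.65 and 3.63 in Baz2B-KO, against 3.99 and 3.88 in the control (log2 fold change -0.29, SE 0.110, adjusted p = 0.446 from limma). IFIT5 had 6.65 and 6.35 in Baz2B-KO and 6.49 and 6.56 in the control, which overlap. IFIT2, at 2.36 and 2.47 in Baz2B-KO, and IFIT3, at 2.54 and 2.14, were below the limit, as they were in the control at 2.37 and 2.72 and at 2.29 and 2.17. These genes sit in 1 cluster on chromosome 10.
The IFITM proteins block the fusion of viral and endosomal membranes, and their genes lay on either side of 0. IFITM2 had 4.53 and 4.75 in Baz2B-KO, against 4.93 and 5.21 in the control, a log2 fold change of -0.42 (SE 0.141, adjusted p = 0.378 from limma). IFITM3 had 5.19 and 5.40 in Baz2B-KO and 5.14 and 5.04 in the control, a log2 fold change of 0.21. IFITM1 had 6.39 and 6.29 in Baz2B-KO, against 6.31 and 6.38 in the control. The IFITM genes are similar in sequence, and whether their probe sets read each other's transcripts was not tested.
IFI35, an interferon-induced protein that binds NMI, had 3.78 and 4.03 in Baz2B-KO, against 4.02 and 4.62 in the control. Its log2 fold change of -0.41 (95% interval -0.89 to 0.06) came with a gap of 0.60 between the controls, the widest among the tested members. It was -0.72 without control replicate 1 and -0.11 without control replicate 2. XAF1, a pro-apoptotic gene induced by interferon, differed by -0.06 at the limit.
EIF2AK2, which encodes the double-stranded RNA kinase PKR, had 8.63 and 8.35 in Baz2B-KO and 8.62 and 8.34 in the control. The arrays of both lines interleaved, with a log2 fold change of 0.01 (95% interval -0.34 to 0.36). Of the TRIM proteins, TRIM25, a ubiquitin ligase in RIG-I signalling, had 7.93 and 8.08 in Baz2B-KO, against 7.70 and 7.87 in the control. TRIM25 had a log2 fold change of 0.22 (95% interval -0.07 to 0.50). TRIM5, which recognises retroviral capsids, had 5.83 and 5.64 in Baz2B-KO and 5.87 and 5.86 in the control, and the antibody receptor TRIM21 and the nuclear body gene PML overlapped between the lines.

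Among the genes under the intensity limit in both lines were several that rise steeply with interferon in many cells. RSAD2 (viperin), MX2, IFI44, IFI44L, IFIT2, IFIT3, IFIH1, TLR3 and SP100 ranged from 1.66 to 3.03 in Baz2B-KO and from 1.74 to 2.75 in the control. Their differences ran from -0.18 to 0.35 on the log2 scale. RSAD2 had 2.62 and 2.68 in Baz2B-KO, against 2.75 and 2.66 in the control. MX2 had 2.87 and 2.85 in Baz2B-KO and 2.45 and 2.74 in the control. Of these 9 genes, 4 had both Baz2B-KO arrays above both controls (IFIH1, TLR3, MX2 and SP100), 5 overlapped and 0 lay below. Of the 4483 named probe sets with no array above the limit, 22.1% had both Baz2B-KO arrays above both controls and 12.9% had them below. Near the background RMA shrinks differences, so that these values cannot show the size of a change. When the intensity limit was dropped, so that they were tested too, CGAS remained the only member called by limma.

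Taken over all 35 tested members, 18 had a log2 fold change above 0 and 17 below, with a median of 0.0031, against a median of 0.017 over all tested probe sets. The arrays of the lines did not overlap for 12 of the 35, with Baz2B-KO above for 7 (DHX58, STING1, IRF1, IFITM3, ISG15, ISG20 and TRIM25) and below for 5 (CGAS, IRF7, IFIT1, IFITM2 and TRIM5). Over all tested probe sets the share without overlap was 37.8%, with Baz2B-KO above in 21.9% and below in 15.9%. An unadjusted p under 0.05 was found for 5 members (CGAS, IRF7, ISG20, IFITM2 and IFIT1), where the share over all probe sets was 9.85%. The difference between the lines was larger than both gaps between replicates for 10 of the 35 members, and over all probe sets for 26.2%. By these counts the members lay near the array as a whole, with CGAS as the exception in size. A log2 fold change over 0.5 in size was found for 1 of the 35, against 2.62% over all. For the other 34 members the 95% interval lay within 1 on the log2 scale of no change, and the smallest change that the test called anywhere on the array was 0.70. With 2 arrays per line, the smallest two-sided p of an exact permutation test is 0.333, so the tests rest on the spread that limma shares between probe sets.

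**Figure D4:**
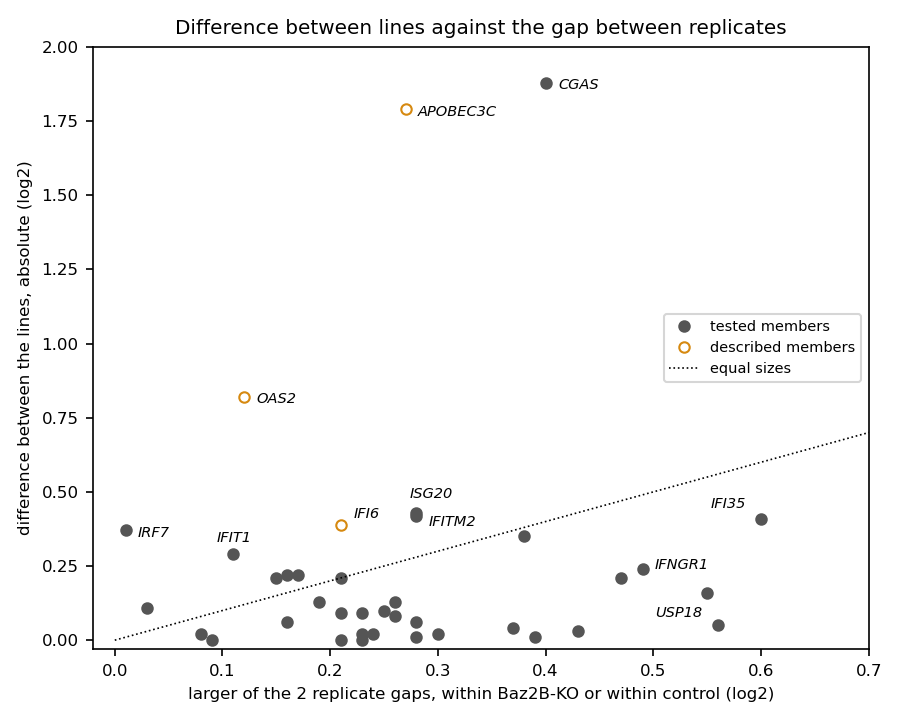
Absolute difference between the lines (log2) against the larger of the replicate gaps within Baz2B-KO and within the control (log2), for the 35 tested members in grey and the 3 described members as open orange points; the dotted line marks equal sizes. CGAS lies far above the line, and 10 tested members lie above it in all. APOBEC3C and OAS2 also lie far above it, which their selection favours. Both were named through rows held for their low p, and OAS2 was retained through Baz2B-KO alone.

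Members with and without the ISRE core in their promoter window were set side by side, with no test. Of the 24 tested members with a promoter window, 11 held the core and had a median log2 fold change of 0.009, between -0.29 (IFIT1) and 0.43 (ISG20), with 6 above 0 and 5 below. The 13 without it had a median of 0.003, between -0.41 (IFI35) and 0.24 (IFNGR1). Of the genes shown with their sequence, those with overlapping matches had log2 fold changes of 0.35 (ISG15), 0.13 (BST2) and -0.03 (HERC5). The tested ones without overlapping matches had -0.29 (IFIT1), -0.02 (IFIT5), 0.21 (IFITM3) and 0.43 (ISG20). IFI6, described only, had 0.39. CGAS, DHX58, IFITM2, IRF2, IRF3, IRF7, OASL, PML, STING1, USP18 and ZBP1 were tested but had no window in the table and belong to neither group.

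**Figure D5:**
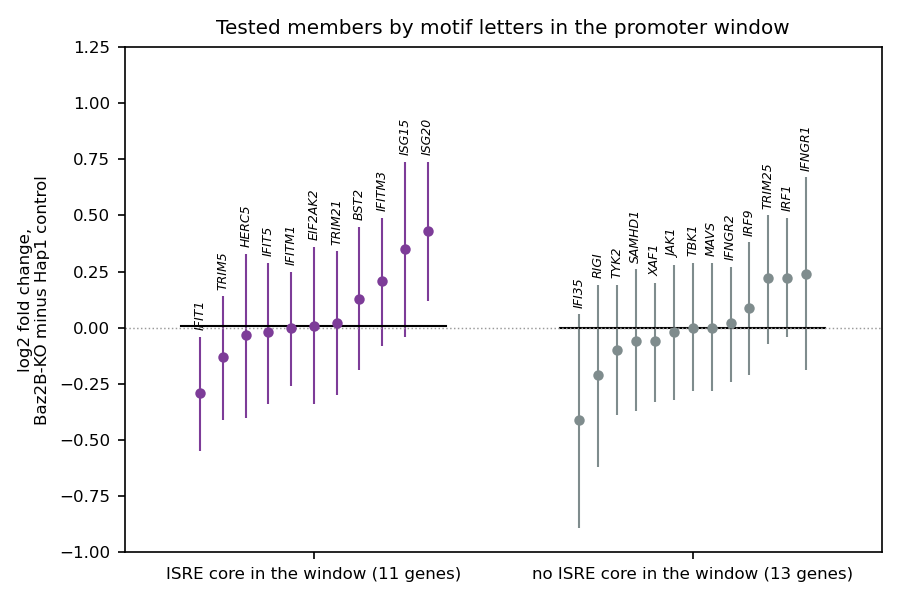
Log2 fold change, Baz2B-KO minus Hap1 control, with 95% intervals, of the 24 tested members with a promoter window, split by whether the window holds the ISRE core (GAAA on either side of 2 bases of any kind); the black bars are medians. The points run from -0.29 to 0.43 with the core and from -0.41 to 0.24 without it, and the ranges overlap.

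Further genes of the pathway were followed in lists that were drawn up with earlier results of these arrays known. Of 53 other sensing and signalling genes, 22 were tested and 0 passed in limma (1 had an unadjusted p under 0.05). Over the array 0.668% of the probe sets passed and 9.85% had an unadjusted p under 0.05, against which a count of 0 among 22 or 23 genes says nothing particular about them. Their median log2 fold change was 0.057, between -0.16 for SOCS1, a feedback inhibitor of JAK kinases, and 0.36 for NFKB1, a subunit of the inflammatory factor NF-kappaB. NFKB1 had 6.69 and 6.61 in Baz2B-KO, against 6.20 and 6.38 in the control (adjusted p = 0.361 from limma). Of 62 other interferon-stimulated genes, 23 were tested and again 0 passed (1 had an unadjusted p under 0.05). Their median was 0.079, between -0.19 for PLSCR1, a phospholipid scramblase, and 0.31 for NMI, an interferon-induced binding partner of IFI35. NMI had 4.14 and 3.97 in Baz2B-KO and 3.73 and 3.77 in the control (adjusted p = 0.447 from limma).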

How the data were processed

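The authors used oligo and RMA to read and normalise the arrays (methods and submitters' processing notes). Tool versions are not given in the sources used here. Deposited values are log2 intensities of 53617 probe sets on 4 arrays (2 Baz2B-KO, 2 Hap1 control), between 0.54 and 12.75 and before any filter. Precision is limited by the number of arrays. Probe sets were named by the platform annotation (16098), whose symbols match RefSeq for each Entrez identifier. From the study's result table only probe set identifiers and symbols were taken, and its fold changes and p-values were not used. The 11235 named probe sets over 3.5 on 2 or more arrays were fitted with limma 3.58.1 in R 4.3.3 (lmFit, eBayes, Baz2B-KO minus Hap1 control, no covariates), with Benjamini-Hochberg adjusted p under 0.05 as the threshold. The fit was tested on simulated data, where 62% of log2 changes of 0.8 and 94% of those of 1 were called. Of the calls there, 3.8% were false. Smaller changes were not simulated. The simulated noise was independent between arrays, so it cannot speak for a spread shared by replicates of the same number. The members, roles, lists and tests were chosen with earlier results of these data known. Values per array were given for members that passed, those named through the result table, the 12 largest changes and their paralogs, and examples of each role. The neighbouring genes were chosen after values were seen. Alternatives were other intensity limits, all retained probe sets, the mean of a gene's probe sets, trend or robust eBayes, a replicate block, 2 scalings and each array left out.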

Additional observations from a re-analysis of the deposited data

How the results depend on the processing

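CGAS kept its direction in 13 alternative settings, between -2.07 and -1.68, and passed in 10 of them. The number of members called was 1, and 0 when all retained probe sets were tested. It ranged from 0 to 1 when 1 array was left out, with 0 in both fits that lack a control array. A fit of 3 arrays has a lone array in 1 line, which is assumed to vary like the other line. The number of probe sets called over the array was 75, and it was 41 with no intensity limit, 26 with all retained probe sets, 38 with the replicate number as a block, and 0 to 42 with 1 array left out. The count of 0 came without control replicate 1 or without control replicate 2, where 935 and 1419 probe sets had an unadjusted p under 0.05 in limma. The replicate differences of the lines correlated at 0.158, and the labels give only a shared number. The marks P5 and P6 in the array names of the study's result table also run with that number in both lines, with no meaning given. CGAS passed with the block too (adjusted p = 0.00656 from limma). The median log2 fold change of the tested members stayed between -0.023 and 0.028. Of the 12 members followed singly, IFNGR1 (0.24) ranged from -0.01 to 0.48 and turned sign without Baz2B-KO replicate 1, and RIGI (-0.21) ranged from -0.45 to 0.02 and turned sign without Baz2B-KO replicate 2. With 1 array left out, IFI35 ranged from -0.72 to -0.11, ISG15 from 0.16 to 0.54, IFITM3 from 0.10 to 0.31, TRIM25 from 0.13 to 0.30 and IRF1 from 0.14 to 0.31. None of these members had passed, and the cause was not tested. The other pathway genes gave 0 calls in every setting run. The log2 values of dim members near the limit of 3.5 are bounded by the array background.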

Other observations

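The chromosomal neighbours of the genes with the largest changes were looked up after those changes were seen, in the gene order of RefSeq for GRCh38.p14. For CGAS on chromosome 6, the nearest 3 tested genes on either side had log2 fold changes between -0.34 and 0.22, and 0 of the 6 passed in limma. Over the array 0.668% of the tested probe sets passed. Against this, a count of 0 among 6 neighbours, here or below, says nothing particular about a locus. Before CGAS in the gene order, 3 (DPPA5) to 5 (KHDC1L) coding genes lay in between. MTO1, a mitochondrial tRNA modification gene with no coding gene between it and CGAS, had 6.59 and 6.46 in Baz2B-KO, against 6.61 and 6.65 in the control. EEF1A1, which encodes a translation elongation factor, had 7.35 and 7.36 in Baz2B-KO and 7.82 and 7.58 in the control (log2 fold change -0.34, adjusted p = 0.430 from limma). For APOBEC3C on chromosome 22, the 6 tested neighbours ranged from -0.12 to 0.41, again with 0 called, and the chromatin gene CBX6 was the highest (6.93 ± 0.0963 in Baz2B-KO and 6.52 ± 0.245 in the control, SD, n = 2 each). At least 2 (CBX6) and up to 7 (SYNGR1) coding genes lay between APOBEC3C and these neighbours, so the genes next to it were not tested. The 6 neighbours of OAS2 on chromosome 12 ranged from -0.33 to 0.38 with 0 called. Before OAS2 in the gene order, 4 (RPL6) to 6 (TRAFD1) coding genes lay in between. DTX1, the next coding gene after OAS2, had 4.56 and 4.58 in Baz2B-KO, against 4.08 and 4.29 in the control.

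The letters of a gamma-activated site, TTCNNNGAA, which reads the same on both strands, stood in the promoter windows of 6 of 32 members, against 7.66% of all windows. The 5 tested ones among them had log2 fold changes between -0.41 and 0.22, and IRF1 was the highest.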
